A study of Mus musculus with 19 samples.

Results

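The chemokine system of the mouse ovary was followed over 4 ages. Members were taken from the table of estimated counts as every gene whose symbol names a numbered chemokine ligand or chemokine receptor (Ccl, Cxcl, Xcl, Cx3cl, Ccr, Cxcr, Xcr or Cx3cr). That rule was met by 57 of 36172 genes listed, 38 ligands and 19 receptors, and no symbol was shared between rows. A mean of at least 0.5 CPM (counts scaled to the size of the library) over all libraries was reached by 42 of the 57, 27 ligands and 15 receptors, and these are described as expressed. Ccl24 lay just inside that limit with a mean of 0.537 CPM and Xcl1 just outside it with 0.487 CPM.

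Chemokines are small secreted proteins that direct the movement of leukocytes, and a few of them are made as membrane-bound forms with a mucin stalk. They act through G protein-coupled receptors that signal mainly through the Gi class, and most receptors bind several ligands while most ligands bind several receptors. In the ovary they are known for recruiting macrophages, neutrophils and lymphocytes at ovulation and during regression of the corpus luteum.

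The families are named for the spacing of the first cysteines of the mature protein. The coding sequence around them is shown for the ligands on which most of the results turn and for Cx3cl1, as reference sequence from GENCODE M21 transcripts (mm10), read 5′ to 3′ on the coding strand, with the cysteine codons in capitals. CC ligands have them side by side, CXC ligands have another codon between them and the CX3C ligand has a longer spacer.
Ccl8: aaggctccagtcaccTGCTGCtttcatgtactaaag
Ccl21a: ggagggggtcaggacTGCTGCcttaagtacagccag
Ccl28: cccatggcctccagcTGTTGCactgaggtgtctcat
Cxcl16: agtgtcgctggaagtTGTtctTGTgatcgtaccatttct
Cxcl12: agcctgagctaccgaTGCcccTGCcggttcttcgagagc
Cx3cl1: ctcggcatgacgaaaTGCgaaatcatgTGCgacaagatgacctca
Each stretch lies within exon 2 of its gene. The positions are chr11:82116041-82116076 on the plus strand for Ccl8, chr4:42773720-42773755 on the minus strand for Ccl21a and chr13:119645877-119645912 on the plus strand for Ccl28. For Cxcl16 it is chr11:70459112-70459150 on the minus strand, for Cxcl12 chr6:117171493-117171531 on the plus strand and for Cx3cl1 chr8:94778036-94778080 on the plus strand.

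The RNA sequenced came from ovaries of females of the inbred mouse strain C57BL/6, aged 3 months (5 libraries), 6 months (5), 9 months (5) or 12 months (4). No treatment or engineered allele is named in the labels, and the ages differ in nothing else that they record. Nothing in them ties a library to a mouse of its own, and the p-values therefore speak only of the spread between these libraries. Library totals ran from 10851519 to 14302207 estimated counts, and no pair of libraries within an age agreed within sampling noise. The ovary markers Inha, Foxl2, Amh, Star, Cyp17a1, Gdf9 and Zp3 summed to 2503 to 3456 CPM at 3 months and 1436 to 2769.5 CPM at 12 months.

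Some libraries stood apart. Replicates 1 and 2 at 9 months and replicate 2 at 12 months had over 5 CPM of Cr2, a receptor of follicular dendritic cells and B cells, and calls of members that were lost without these 3 libraries are given with the value found without them. The 6 lymph node markers summed to 31.8, 67.3 and 76.4 CPM in these 3 libraries, in that order, against 5.74 to 12.1 CPM in the other 16. Cr2, by which the libraries were picked, is itself among these 6 and gave 6.15, 10.7 and 12.5 CPM of the 3 sums. Liver markers were high in some 9 month libraries, where Alb, the albumin gene, reached 362 CPM in replicate 3. The adipocyte markers Adipoq, Plin1, Cidec and Lep summed to 845 CPM in 9 month replicate 1 and to 71.1 to 398 CPM in the other libraries. The 3 oviduct markers summed to 1735 to 2832 CPM at 3 months and 2378 to 5178 CPM at 12 months. In whole tissue, fewer cells of a type and less RNA per cell cannot be told apart.

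Levels spanned a wide range. Per kilobase of exon, mean abundance was highest for Ccl21a, a ligand that lymphatic and stromal cells present to CCR7-bearing cells (91.2 CPM per kb), followed by Cxcl14, an epithelial and stromal ligand (42.95), Cxcl12, the stromal ligand of CXCR4 (20.2), Ccl6, a macrophage ligand of CCR1 (17.3), and Ccl8, a monocyte-drawing ligand (17.1). Without the length correction the order of mean CPM was Cxcl12 (165 CPM), Ccl21a (79.3), Cxcl14 (78.5), Cxcl16 (31.8) and Ccl6 (31.01). Among receptors the mean per kilobase was highest for Cxcr4 (10.05 CPM per kb) and Cxcr7 (7.59), both receptors of CXCL12, then Ccr2 (4.15) and Cx3cr1 (3.92), which mark monocytes and macrophages.

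With age, more members became higher than lower. Of the 42 expressed members 41 passed the filter on low counts. The exception was Ccr6, which had at most 0.274 CPM in 16 of the 19 libraries. Between 3 and 12 months 9 rose and 1 fell, while 22.4% of all 15518 genes tested were called in that comparison in either direction and 10.9% were called higher. The 10 calls are 24.4% of the members tested, close to the background, and the 9 higher are 22.0%. The median log2 change was 0.58 over the members and 0.02 over all genes. Between 3 and 9 months 14 rose and 1 fell against a background of 25.0% of all genes called and 11.3% called higher, and the 15 calls are 36.6% of the members tested. The medians there were 0.64 over the members and 0.01 over all genes. For the linear trend over all 4 ages, given as the change over 9 months, 17 rose and 2 fell against 29.5% of all genes called and 14.7% called higher. The 19 calls are 46.3% of the members tested and the 17 higher are 41.5%, and the medians were 0.65 and 0.03.

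Between 3 and 6 months no member was called in edgeR's quasi-likelihood test, with 0.0193% of all genes called (0.0129% higher and 0.00644% lower), and 2 members had an unadjusted p under 0.05. DESeq2 also called 0 members there and 47 genes in all, and 1528 genes had an unadjusted p under 0.05 in edgeR's test. Between 6 and 12 months 4 members rose and none fell, against a background of 13.4% of all genes called, 6.15% higher and 7.27% lower. The 4 are 9.76% of the members tested. From 9 to 12 months edgeR called 0 members and 0% of all genes, with 5 members and 2152 genes at an unadjusted p under 0.05, and DESeq2 called 1 member, Cxcl12, and 252 genes. The comparison of 12 with 9 months was added after the values had been seen. Comparisons that share the 3 month or the 12 month libraries are not independent of each other.

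**Figure D1:**
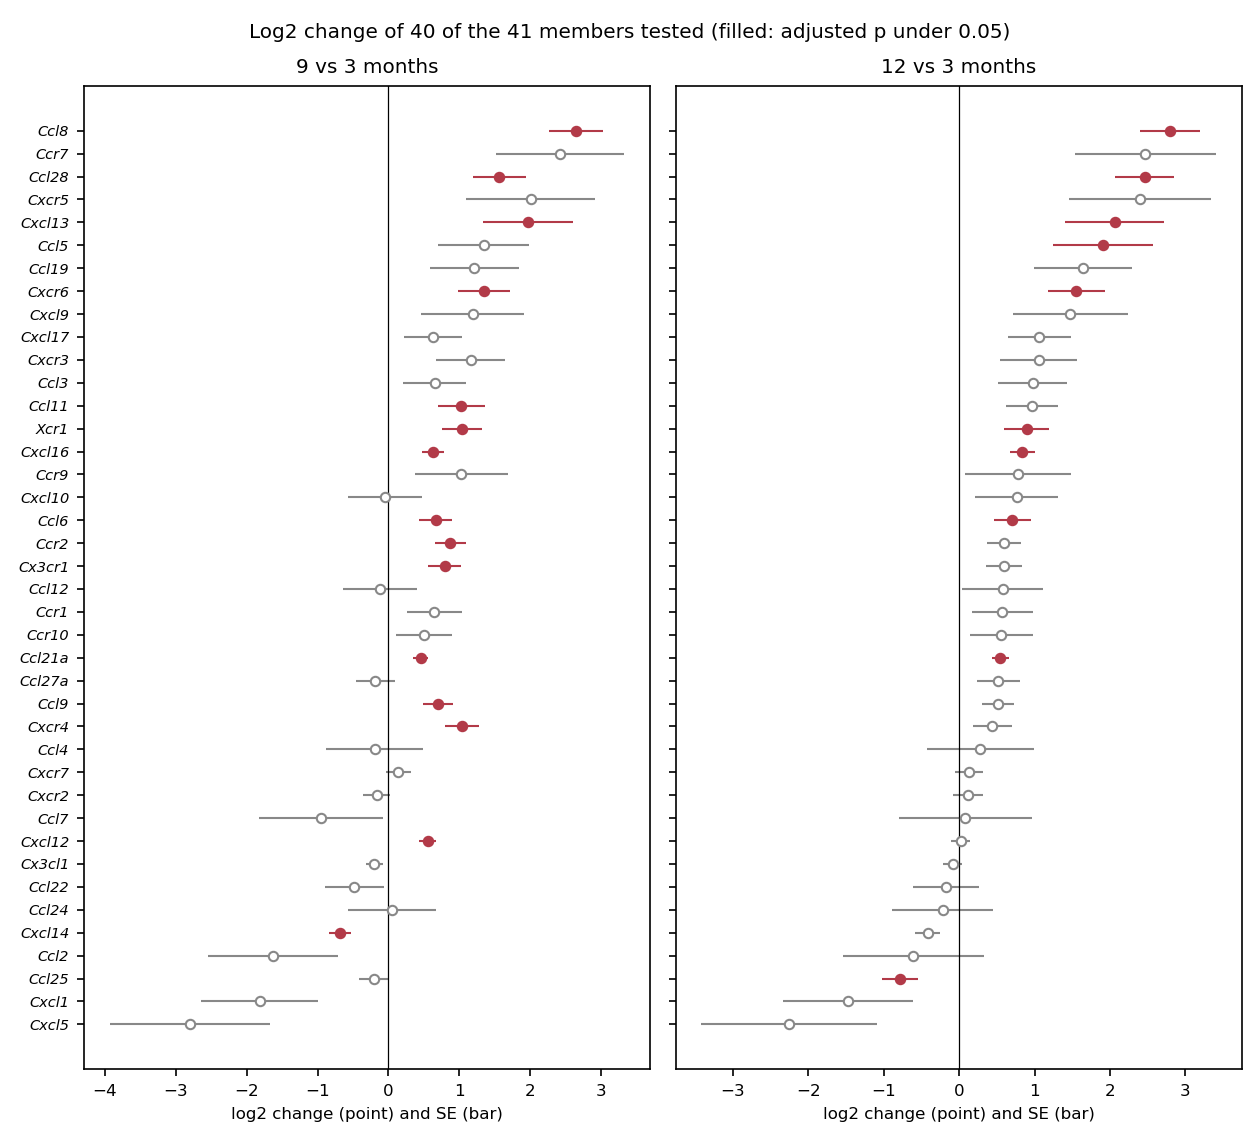
Log2 change (point) with its SE (bar) of 40 of the 41 members tested, at 9 against 3 months on the left and 12 against 3 months on the right, ordered by the change at 12 months. Filled red points have an edgeR adjusted p under 0.05. Ccl8 has the highest log2 change in both panels, 2.65 and 2.79, and the wide bars at the bottom belong to Cxcl1 and Cxcl5.

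The ligands of CCR2, the receptor by which monocytes leave the blood for tissue, lie close together on chromosome 11 (mm10, GENCODE M21), with Ccl11, a ligand of CCR3, among them. Ccl2, Ccl7, Ccl11, Ccl12 and Ccl8 fill chr11:82035571-82116799 on the plus strand in that order. Of these 5, Ccl8 and Ccl11 rose in the trend. Ccl8 (NCBI gene 20307, chr11:82115185-82116799), which encodes a monocyte-drawing ligand that in the mouse also engages CCR8, stood at 2.63, 1.72, 2.73, 1.46 and 2.77 CPM at 3 months, 2.56, 4.18, 5.77, 5.15 and 3.35 at 6 months, 17.3, 24.98, 12.1, 8.97 and 7.69 at 9 months and 20.4, 24.9, 10.4 and 7.03 at 12 months. Every library of 9 and 12 months lay above every library of 3 and 6 months. The log2 change was 2.79 ± 0.40 (SE, edgeR adjusted p = 0.000419) at 12 against 3 months, a 6.91-fold rise, 2.65 ± 0.39 (SE, edgeR adjusted p = 0.000204) at 9 against 3 months and 1.89 ± 0.38 (SE, edgeR adjusted p = 0.004704) at 12 against 6 months. Without the 3 libraries over 5 CPM of Cr2 it was 2.47 ± 0.32 (SE, edgeR adjusted p = 0.000247) at 12 against 3 months.

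The neighbouring gene Ccl12, a ligand of CCR2 at chr11:82101845-82103400, ranged from 0.437 to 3.37 CPM over all libraries, with means of 1.15 ± 0.466 (SD) at 3 months and 1.72 ± 1.22 at 12 months. Its log2 change over 12 against 3 months was 0.58 ± 0.53 (SE, edgeR adjusted p = 0.462). Ccl2, the main monocyte-drawing ligand, had a log2 change of -0.61 ± 0.93 (SE, edgeR adjusted p = 0.6802) and Ccl7, its close relative, of 0.08 ± 0.88 (SE, edgeR adjusted p = 0.959), and for both the spread between libraries of 1 age was wide, as described below. Ccl11 or eotaxin, an eosinophil-drawing ligand of CCR3 that lies between Ccl7 and Ccl12, stood at 3.602, 3.14, 3.37, 4.37 and 2.48 CPM at 3 months, 2.83, 3.32, 2.57, 5.15 and 2.37 at 6 months, 11.7, 7.34, 6.77, 4.45 and 4.41 at 9 months and 7.35, 6.58, 10.2 and 2.42 at 12 months. All 9 month libraries lay above all 3 month libraries, while the lowest 12 month library lay below all of them. Ccl11 rose with a log2 change of 1.03 ± 0.33 (SE, edgeR adjusted p = 0.0297) at 9 against 3 months and of 1.23 ± 0.35 (SE, edgeR adjusted p = 0.0133) in the trend, and its change at 12 against 3 months was 0.97 ± 0.35 (SE, edgeR adjusted p = 0.0515). The call at 9 against 3 months was lost without 3 month replicates 2, 3 or 5 or 9 month replicates 1 or 2, where it was 0.77 to 1.04 (edgeR adjusted p = 0.05201 to 0.0857). Among the 16 libraries with less Cr2, Ccl11 had log2 changes of 0.63 ± 0.35 (SE, edgeR adjusted p = 0.226) at 9 against 3 months and of 0.97 ± 0.35 (SE, edgeR adjusted p = 0.0486) at 12 against 3 months.

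The 250 bases before the start of Ccl8 and of Ccl12 are shown because Ccl8 rose with age and its neighbour Ccl12 did not pass the test. Both are RefSeq sequences (GRCm38.p6) on the plus strand of chromosome 11, chr11:82114935-82115184 for Ccl8 and chr11:82101595-82101844 for Ccl12. Matches to TATAAA are in capitals.
Ccl8: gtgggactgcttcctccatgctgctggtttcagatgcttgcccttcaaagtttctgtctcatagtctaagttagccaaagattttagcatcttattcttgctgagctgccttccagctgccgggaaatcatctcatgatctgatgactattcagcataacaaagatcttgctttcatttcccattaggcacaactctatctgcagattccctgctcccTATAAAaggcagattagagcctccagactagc
Ccl12: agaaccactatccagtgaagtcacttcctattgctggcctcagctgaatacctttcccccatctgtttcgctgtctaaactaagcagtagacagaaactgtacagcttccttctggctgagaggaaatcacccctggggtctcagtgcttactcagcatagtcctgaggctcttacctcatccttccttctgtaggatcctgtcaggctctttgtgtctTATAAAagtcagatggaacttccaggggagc
The letters TATAAA begin 32 bases before the start of Ccl8 and 31 bases before that of Ccl12. Searched on both strands, they were found in 12.4% of all 32851 promoter windows of that length and in those of 10 of the 29 expressed members with a window. A kappa-B-like motif (GGGA, NN, then TTCC) and an interferon response-like motif (GAAA, NN, then GAAA) were not found on either strand of these 2 windows.

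Ccr2 itself, the receptor of Ccl2, Ccl7, Ccl8 and Ccl12, stood at 24.3, 17.9, 19.4, 22.7 and 16.97 CPM at 3 months, 29.7, 23.2, 29.03, 24.4 and 18.6 at 6 months, 42.7, 57.2, 32.8, 28.8 and 24.2 at 9 months and 39.95, 35.05, 25.7 and 21.5 at 12 months. The 3 and 9 month ranges met at their edges, and the 12 month libraries spread over both. Ccr2 rose with a log2 change of 0.88 ± 0.21 (SE, edgeR adjusted p = 0.00665) at 9 against 3 months and 0.77 ± 0.24 (SE, edgeR adjusted p = 0.0224) in the trend, and at 12 against 3 months its change was 0.59 ± 0.23 (SE, edgeR adjusted p = 0.0659). Without the 3 libraries over 5 CPM of Cr2 the change at 9 against 3 months was 0.51 ± 0.19 (SE, edgeR adjusted p = 0.0691). The trend call was lost without 3 month replicate 5, where it was 0.71 (edgeR adjusted p = 0.0529).

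Some macrophage and monocyte markers also rose with age. Of the 10 listed, 5 rose at 12 against 3 months (C1qa, C1qb, C1qc, Cd68 and Ly6c2) and none fell, and their summed level was 274 to 384 CPM at 3 months and 341 to 580.1 CPM at 12 months. Emr1, which encodes F4/80 of mature macrophages, had a log2 change of 0.31 ± 0.26 (SE, edgeR adjusted p = 0.411). Per 100 CPM of the 10 markers, Ccl8 stood at 0.459 to 1.01 CPM at 3 months and 2.06 to 4.3002 CPM at 12 months, and these ranges did not overlap. On the same scale Ccr2 stood at 6.2001 to 7.13 and 6.04 to 7.22, Cx3cr1 at 2.97 to 5.53 and 2.67 to 5.33, and Cxcl16 at 6.24 to 9.45 and 8.12 to 11.6, all of which overlapped. The part of these cells in the chemokine values was not tested beyond these ratios.

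**Figure D2:**
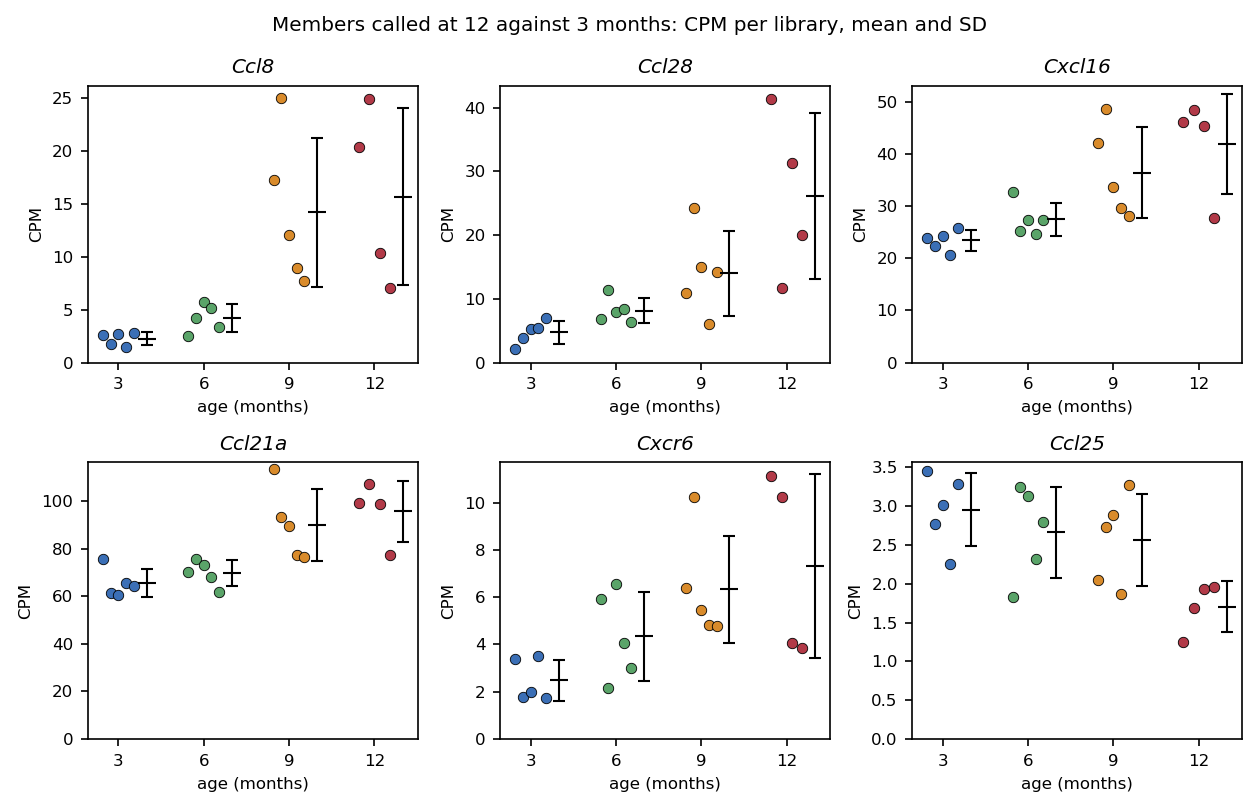
CPM of 6 members that were called at 12 against 3 months, by age in months. Each point is 1 library, and the dash and bar beside each age are the mean and SD. In each panel the 3 month and 12 month libraries do not overlap, with Ccl25 lower and the other 5 genes higher at 12 months.

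A second gene with a large rise was Ccl28, a mucosal epithelial ligand of CCR10 and CCR3 (NCBI gene 56838, chr13:119623819-119654359 on the plus strand). It stood at 2.18, 3.89, 5.31, 5.39 and 6.92 CPM at 3 months, 6.76, 11.3, 7.94, 8.41 and 6.35 at 6 months, 10.9, 24.2, 14.98, 6.01 and 14.2 at 9 months and 41.4, 11.7, 31.3 and 19.9 at 12 months. Every 12 month library lay above every 3 month library. Its log2 change was 2.46 ± 0.39 (SE, edgeR adjusted p = 0.000843) at 12 against 3 months, a 5.49-fold rise, 1.57 ± 0.37 (SE, edgeR adjusted p = 0.00574) at 9 against 3 months and 1.67 ± 0.38 (SE, edgeR adjusted p = 0.00941) at 12 against 6 months. Its lowest 12 month value was in replicate 2, where Ccl8 had its highest.

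Oviduct markers rose in part as well. Of Ovgp1, Foxj1 and Tekt4, which mark secretory and ciliated cells of the oviduct, Ovgp1 and Tekt4 rose at 12 against 3 months, Ovgp1 with a log2 change of 0.79 ± 0.27 (SE, edgeR adjusted p = 0.0434). At 12 months the summed markers, mostly Ovgp1, and Ccl28 had the same order over the 4 libraries. Both were highest in replicate 1 (5178 CPM of the markers) and lowest in replicate 2 (2378 CPM). At the other ages the orders differed. The marker sum was highest in replicate 4 at 3 months and replicate 3 at 6 months, but Ccl28 in replicates 5 and 2. At 9 months both were highest in replicate 2, with 6295 CPM of the markers, but the markers were lowest in replicate 1 and Ccl28 in replicate 4. Per 100 CPM of these markers Ccl28 stood at 0.123 to 0.328 CPM at 3 months and 0.492 to 0.8003 CPM at 12 months, without overlap. The part of oviduct tissue was not tested beyond this ratio. Cxcl17, a mucosal ligand that draws monocytes, stood at 0.825, 1.34, 1.51, 1.09 and 2.55 CPM at 3 months, 0.914, 2.09, 0.802, 2.03 and 0.837 at 6 months, 1.42, 2.45, 2.59, 1.404 and 3.5003 at 9 months and 3.21, 1.07, 4.23 and 3.78 at 12 months, with overlap between all ages. It rose in the trend, by 1.17 ± 0.39 (SE, edgeR adjusted p = 0.0283), a call lost without 3 month replicate 1 or 12 month replicates 1, 3 or 4, where it was 1.01 to 1.13 (edgeR adjusted p = 0.05301 to 0.0828). At 12 against 3 months its change was 1.06 ± 0.42 (SE, edgeR adjusted p = 0.0737) with all libraries, 1.35 (edgeR adjusted p = 0.0215) without 12 month replicate 2 and 1.35 ± 0.39 (SE, edgeR adjusted p = 0.0179) without the 3 libraries over 5 CPM of Cr2. Without those 3 it was 1.47 ± 0.39 (SE, edgeR adjusted p = 0.0175) at 12 against 6 months, and both changes passed the threshold. Relative to 100 CPM of the oviduct markers it stood at 0.0386 to 0.121 CPM at 3 months and 0.0451 to 0.118 CPM at 12 months.

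The other mucosal genes gave 1 further call, in the opposite direction. Ccl25, the thymic and intestinal ligand of CCR9, stood at 3.45, 2.76, 3.01, 2.26 and 3.28 CPM at 3 months, 1.83, 3.25, 3.13, 2.32 and 2.79 at 6 months, 2.05, 2.74, 2.89, 1.87 and 3.27 at 9 months and 1.25, 1.68, 1.93 and 1.96 at 12 months. All 12 month libraries lay below all 3 month libraries. It fell by 0.79 on the log2 scale at 12 against 3 months, with an SE of 0.24 and an edgeR adjusted p = 0.0238. That call was lost without 3 month replicates 1 or 5 or 12 month replicate 1, where it was -0.75 to -0.67 (edgeR adjusted p = 0.0532 to 0.0739). In the trend it was -0.68 ± 0.23 (SE, edgeR adjusted p = 0.03096), a call lost without 3 month replicates 1, 3 or 5 or 12 month replicates 1, 2 or 3, where it was -0.68 to -0.55 (edgeR adjusted p = 0.0514 to 0.07702). Among the 16 libraries with less Cr2 that trend was -0.63 ± 0.26 (SE, edgeR adjusted p = 0.0775). Elavl1 lies on the other strand over the same stretch of chromosome 8. The skin ligand Ccl27a had 1.66 to 4.84 CPM over all libraries and a log2 change of 0.52 ± 0.29 (SE, edgeR adjusted p = 0.203), its receptor Ccr10 had 0.437 to 2.37 CPM and 0.56 ± 0.42 (SE, edgeR adjusted p = 0.349), and Ccr9 had 0 to 2.53 CPM and 0.78 ± 0.70 (SE, edgeR adjusted p = 0.451). Counts of Ccl27a and of Ccr10 are uncertain, Ccl27a because of its near copy Ccl27b and both because of genes on the opposite strand.

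Of the 2 membrane-bound ligands, 1 rose and the other did not pass the test. Cxcl16, a scavenger receptor and ligand made by macrophages and dendritic cells, lies at chr11:70453983-70459984 on the minus strand (NCBI gene 66102). It stood at 23.9, 22.4, 24.3, 20.7 and 25.9 CPM at 3 months, 32.7, 25.2, 27.4, 24.7 and 27.3 at 6 months, 42.1, 48.7, 33.6, 29.7 and 28.1 at 9 months and 46.2, 48.5, 45.3 and 27.7 at 12 months. All 9 and 12 month libraries lay above the 3 month range. The log2 change was 0.84 ± 0.16 (SE, edgeR adjusted p = 0.00253) at 12 against 3 months, a 1.79-fold rise, and 0.61 ± 0.16 (SE, edgeR adjusted p = 0.0206) at 12 against 6 months. At 9 against 3 months it was 0.64 ± 0.15 (SE, edgeR adjusted p = 0.00610) with all libraries and 0.39 ± 0.14 (SE, edgeR adjusted p = 0.0594) without the 3 libraries over 5 CPM of Cr2. Zmynd15 overlaps it on the opposite strand. The library kit named in the labels keeps strand, but whether the counting used strand is not given in the sources used here.

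Cxcr6, the receptor of CXCL16 on T cells and natural killer T cells, stood at 3.38, 1.79, 2.01, 3.499 and 1.75 CPM at 3 months, 5.94, 2.16, 6.58, 4.06 and 2.999 at 6 months, 6.39, 10.2, 5.48, 4.84 and 4.79 at 9 months and 11.1, 10.3, 4.08 and 3.85 at 12 months. No 12 month library lay within the 3 month range, although replicates 3 and 4 at 12 months came close to it. Cxcr6 rose with a log2 change of 1.55 ± 0.38 (SE, edgeR adjusted p = 0.008501) at 12 against 3 months, a 2.94-fold rise. At 9 against 3 months it was 1.35 ± 0.37 (SE, edgeR adjusted p = 0.011996) with all libraries and 1.03 ± 0.39 (SE, edgeR adjusted p = 0.0778) without the 3 libraries over 5 CPM of Cr2. Fyco1 overlaps Cxcr6 on the opposite strand. Of the 10 T and NK cell markers 8 rose at 12 against 3 months, and 2 rose with those 3 libraries left out. Their sum was 9.69 to 16.2 CPM at 3 months and 15.2 to 153 CPM at 12 months. On the scale of 100 CPM of those markers Cxcr6 stood at 14.7 to 30.0 CPM at 3 months and 6.72 to 40.6 CPM at 12 months, which overlapped. Their part in the level of Cxcr6 was not tested.

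The other membrane-bound ligand, Cx3cl1 or fractalkine, ranged from 19.6 to 32.2 CPM in all libraries, with a log2 change of -0.09 ± 0.13 (SE, edgeR adjusted p = 0.668) at 12 against 3 months. Cx3cr1, its receptor on monocytes and macrophages, stood at 11.4, 11.3, 15.3, 14.2 and 11.3 CPM at 3 months, 23.8, 14.4, 16.04, 16.4 and 14.996 at 6 months, 26.98, 26.3, 19.5, 21.4 and 15.98 at 9 months and 29.5, 23.2, 10.5 and 13.6 at 12 months. All 9 month libraries lay above all 3 month libraries, and the 12 month libraries spread from below the lowest 3 month value to above the highest 9 month value. Cx3cr1 rose with a log2 change of 0.79 ± 0.23 (SE, edgeR adjusted p = 0.0181) at 9 against 3 months and of 0.69 ± 0.25 (SE, edgeR adjusted p = 0.0427) in the trend, and its change at 12 against 3 months was 0.59 ± 0.24 (SE, edgeR adjusted p = 0.0856). The trend call was lost in 15 of 19 fits, those without 3 month replicates 1, 2, 3, 4 or 5 or 6 month replicates 2, 3, 4 or 5 or 9 month replicates 1, 2, 3 or 4 or 12 month replicates 1 or 2, where it was 0.55 to 0.73 (edgeR adjusted p = 0.0516 to 0.125). The call at 9 against 3 months was lost in none of them. Without the 3 libraries over 5 CPM of Cr2 the latter was 0.59 ± 0.26 (SE, edgeR adjusted p = 0.125) and the trend 0.53 ± 0.25 (SE, edgeR adjusted p = 0.128). The annotated span of Cx3cr1 overlaps several genes on both strands. Adam10 and Adam17, the proteases that shed both ligands, had log2 changes of -0.17 ± 0.05 (SE, edgeR adjusted p = 0.0263) and -0.19 ± 0.06 (SE, edgeR adjusted p = 0.0433).

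Ligands of CCR1 and related receptors lie in a second block on chromosome 11, from Ccl5 to Ccl4 at chr11:83525778-83664683. Ccl6, a macrophage ligand of CCR1, stood at 33.2, 19.9, 14.1, 22.7 and 24.1 CPM at 3 months, 26.7, 27.6, 31.7, 33.9 and 26.6 at 6 months, 32.8, 51.8, 31.3, 35.6 and 29.1 at 9 months and 36.5, 59.8, 26.2 and 25.9 at 12 months. The 3 and 12 month ranges overlapped. Its log2 change was 0.70 ± 0.25 (SE, edgeR adjusted p = 0.0489) at 12 against 3 months, and without 12 month replicate 2 it was 0.37 (edgeR adjusted p = 0.236). The call at 12 against 3 months was lost in 15 of 19 fits, those without 3 month replicates 2, 3, 4 or 5 or 6 month replicates 1, 2, 3, 4 or 5 or 9 month replicates 1, 3, 4 or 5 or 12 month replicates 1 or 2, where it was 0.37 to 0.72 (edgeR adjusted p = 0.0512 to 0.236). In the trend Ccl6 changed by 0.74 ± 0.23 (SE, edgeR adjusted p = 0.0206), a call lost without 12 month replicate 2, where it was 0.55 (edgeR adjusted p = 0.0839). Ccl9, another CCR1 ligand of macrophages, stood at 13.96, 10.9, 8.25, 11.2 and 11.9 CPM at 3 months, 11.2, 9.74, 12.3, 16.97 and 16.1 at 6 months, 21.1, 21.2, 18.2, 18.02 and 12.9 at 9 months and 18.6, 22.3, 13.1 and 10.4 at 12 months. It rose with a log2 change of 0.70 ± 0.21 (SE, edgeR adjusted p = 0.0185) at 9 against 3 months and 0.64 ± 0.22 (SE, edgeR adjusted p = 0.0317) in the trend, and its change at 12 against 3 months was 0.52 ± 0.22 (SE, edgeR adjusted p = 0.0922). The trend call was lost without 3 month replicates 2, 3, 4 or 5 or 12 month replicates 1 or 2, where it was 0.55 to 0.65 (edgeR adjusted p = 0.0509 to 0.0808). In the 16 libraries with less Cr2 the change of Ccl9 at 9 against 3 months was 0.55 ± 0.21 (SE, edgeR adjusted p = 0.07999) and that of Ccl6 0.51 ± 0.20 (SE, edgeR adjusted p = 0.0849), against 0.67 ± 0.24 (SE, edgeR adjusted p = 0.04604) for Ccl6 with all libraries. The latter call was lost in 13 of 19 fits, those without 3 month replicates 2, 3, 4 or 5 or 6 month replicates 1, 2, 3, 4 or 5 or 9 month replicates 2, 3 or 4 or 12 month replicate 1, where it was 0.51 to 0.70 (edgeR adjusted p = 0.0502 to 0.137). In the same 16 libraries Ccl6 had a log2 change of 0.37 ± 0.20 (SE, edgeR adjusted p = 0.175) at 12 against 3 months, and the trend was 0.42 ± 0.20 (SE, edgeR adjusted p = 0.125) for Ccl6 and 0.42 ± 0.21 (SE, edgeR adjusted p = 0.152) for Ccl9, none of which passed the threshold. On the scale of 100 CPM of the macrophage markers Ccl6 stood at 5.09 to 8.81 CPM at 3 months and 6.603 to 10.3 CPM at 12 months, and Ccl9 at 2.99 to 4.36 and 3.04 to 3.85.

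Ccl5 or RANTES, a ligand that T and NK cells make, stood at 1.05, 1.79, 2.23, 1.09 and 1.603 CPM at 3 months, 3.38, 0.722, 2.57, 1.596 and 1.53 at 6 months, 7.41, 6.98, 1.83, 1.64 and 1.902 at 9 months and 3.44, 16.2, 1.04 and 2.72 at 12 months. It was high in the 3 libraries over 5 CPM of Cr2, and the other 12 month libraries overlapped the 3 month ones. Its log2 change was 1.91 ± 0.66 (SE, edgeR adjusted p = 0.0468) at 12 against 3 months and 0.62 (edgeR adjusted p = 0.459) without 12 month replicate 2, and 0.62 ± 0.43 (SE, edgeR adjusted p = 0.299) without all 3. The call was lost without 3 month replicates 1, 2, 3, 4 or 5 or 6 month replicates 3, 4 or 5 or 12 month replicate 2, where it was 0.62 to 2.07 (edgeR adjusted p = 0.0551 to 0.459). In the trend it was 2.03 ± 0.59 (SE, edgeR adjusted p = 0.0147) with all libraries and 0.53 ± 0.39 (SE, edgeR adjusted p = 0.324) without those 3. Ccl3 and Ccl4, which activated macrophages and T cells make, did not pass the test. Ccl3 had 0.292 to 2.53 CPM over all libraries with a log2 change of 0.97 ± 0.46 (SE, edgeR adjusted p = 0.133) at 12 against 3 months, and Ccl4 had 0 to 2.29 CPM with 0.28 ± 0.71 (SE, edgeR adjusted p = 0.81004).

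On chromosome 9, Cxcr6, Xcr1, Ccr1, Ccr3 and Ccr2 lie in a block of receptor genes. Cxcr6, Xcr1 and Ccr2 rose in the trend. Ccr1, a receptor of monocytes and neutrophils, had 1.24 to 5.21 CPM over all libraries and a trend of 0.60 ± 0.38 (SE, edgeR adjusted p = 0.251). Ccr3 lay below the limit of expression. Xcr1, the receptor of cross-presenting dendritic cells, stood at 1.43, 2.24, 1.79, 1.82 and 1.53 CPM at 3 months, 3.29, 1.66, 2.49, 1.45 and 2.37 at 6 months, 3.94, 4.68, 3.35, 4.21 and 1.98 at 9 months and 4.61, 4.06, 2.15 and 2.34 at 12 months. The lowest 12 month library lay within the 3 month range. Xcr1 rose with a log2 change of 0.90 ± 0.30 (SE, edgeR adjusted p = 0.0382) at 12 against 3 months and 1.04 ± 0.28 (SE, edgeR adjusted p = 0.0125) at 9 against 3 months. The former call was lost without 3 month replicates 1, 3, 4 or 5 or 12 month replicates 1 or 2, where it was 0.69 to 0.91 (edgeR adjusted p = 0.0558 to 0.137). In the 16 libraries with less Cr2 these changes were 0.78 ± 0.33 (SE, edgeR adjusted p = 0.0901) and 0.86 ± 0.33 (SE, edgeR adjusted p = 0.0762). Of the 5 dendritic cell markers only Itgax rose at 12 against 3 months, and Clec9a, which marks the same subset as Xcr1, had a log2 change of 0.11 ± 0.22 (SE, edgeR adjusted p = 0.756).

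Genes of the lymphoid tissue axis split into a pair of patterns. Ccl21a, which guides CCR7-bearing dendritic cells and T cells to lymphatics (NCBI gene 18829, chr4:42772860-42773993 on the minus strand), stood at 75.6, 61.5, 60.6, 65.6 and 64.3 CPM at 3 months, 70.4, 75.5, 73.05, 68.3 and 61.7 at 6 months, 114, 93.2, 89.7, 77.1 and 76.3 at 9 months and 99.1, 107, 98.95 and 77.1 at 12 months. All 9 and 12 month libraries lay above all 3 month libraries, by a small margin at the edges. Its log2 change was 0.55 ± 0.11 (SE, edgeR adjusted p = 0.00314) at 12 against 3 months, a 1.46-fold rise, and without the 3 libraries over 5 CPM of Cr2 it was 0.49 ± 0.09 (SE, edgeR adjusted p = 0.002002). Its copy Ccl21b was at 0 in every library. The coding sequences of both are 399 bases long and differ at 2 of them, and how reads shared by both were counted is not given in the sources used here. Endothelial markers rose too, 3 of 5 at 12 against 3 months. Relative to 100 CPM of their sum Ccl21a stood at 22.5 to 27.3 CPM at 3 months and 22.4 to 31.7 CPM at 12 months, which overlapped.

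The second pattern was shared by Ccl19 and its receptor Ccr7, which bring T cells and dendritic cells into lymphoid tissue, and by Cxcl13 and its receptor Cxcr5, which draw B cells into follicles. Ccl19 stood at 2.85, 1.42, 1.51, 1.75 and 2.48 CPM at 3 months, 2.92, 1.66, 2.65, 1.81 and 1.604 at 6 months, 10.3, 7.85, 1.901, 1.87 and 1.37 at 9 months and 2.502, 17.6, 2.45 and 2.42 at 12 months. Ccr7 stood at 0.225, 0.448, 0.574, 0.729 and 1.24 CPM at 3 months, 0.914, 0.505, 0.401, 0.725 and 0.418 at 6 months, 6.63, 8.93, 0.684, 0.546 and 0.685 at 9 months and 1.02, 11.7, 0.668 and 1.06 at 12 months. For both, replicates 1 and 2 at 9 months and replicate 2 at 12 months were far above all others. Cxcr5 stood at 0.4502, 1.196, 0.718, 0.583 and 0.801 CPM at 3 months, 0.731, 0.794, 0.962, 0.653 and 0.488 at 6 months, 5.52, 6.77, 1.83, 0.468 and 0.609 at 9 months and 0.469, 14.2, 0.8901 and 0.378 at 12 months, with the same 3 libraries highest. Cxcl13 stood at 1.58, 0.897, 1.72, 1.02 and 1.17 CPM at 3 months, 2.56, 2.02, 3.29, 1.16 and 0.697 at 6 months, 13.4, 7.34, 1.901, 1.48 and 1.07 at 9 months and 6.49, 9.11, 1.93 and 3.93 at 12 months. It was highest in those 3 libraries too, and its other 12 month values also lay above the 3 month range. Ccr6, a receptor of B cells and of some T cells, had 2.38 to 4.496 CPM in those 3 libraries against 0 to 0.274 in the other 16. It met the limit of expression, with a mean of 0.631 CPM, only through those 3 libraries, so its split adds no support to the pattern. Apart from Ccr6, the members Ccl5, Ccl9, Ccl19, Cxcl13, Ccr7, Cxcr3 and Cxcr5 were higher in each of the 3 libraries than in each of the other 16. Ccl21a was not among them. Such a split was not counted over all genes, and it was not confined to the members. Among genes of leukocyte signalling Rac2, Vav1 and Was had it too, while Gnai2 and Gng2 did not.

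B cell and T cell markers and most lymph node markers were high in the same 3 libraries. Glycam1, a mucin of high endothelial venules, had 6.705 to 33.98 CPM in those 3 libraries against 0 to 1.901 in the other 16. Of the same list Madcam1 had 0 to 0.158 CPM in those 3 against 0 to 0.302 in the other 16. Chst4 had 9.26 to 15.3 against 3.64 to 9.54, which overlapped. Cd3e, a T cell marker, had 8.14 to 12.9 CPM in those 3 libraries against 0.299 to 3.52 in the other 16. All 6 B cell markers rose in the trend, and 4 with these libraries left out. Their part in the chemokine values was not tested.

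**Figure D3:**
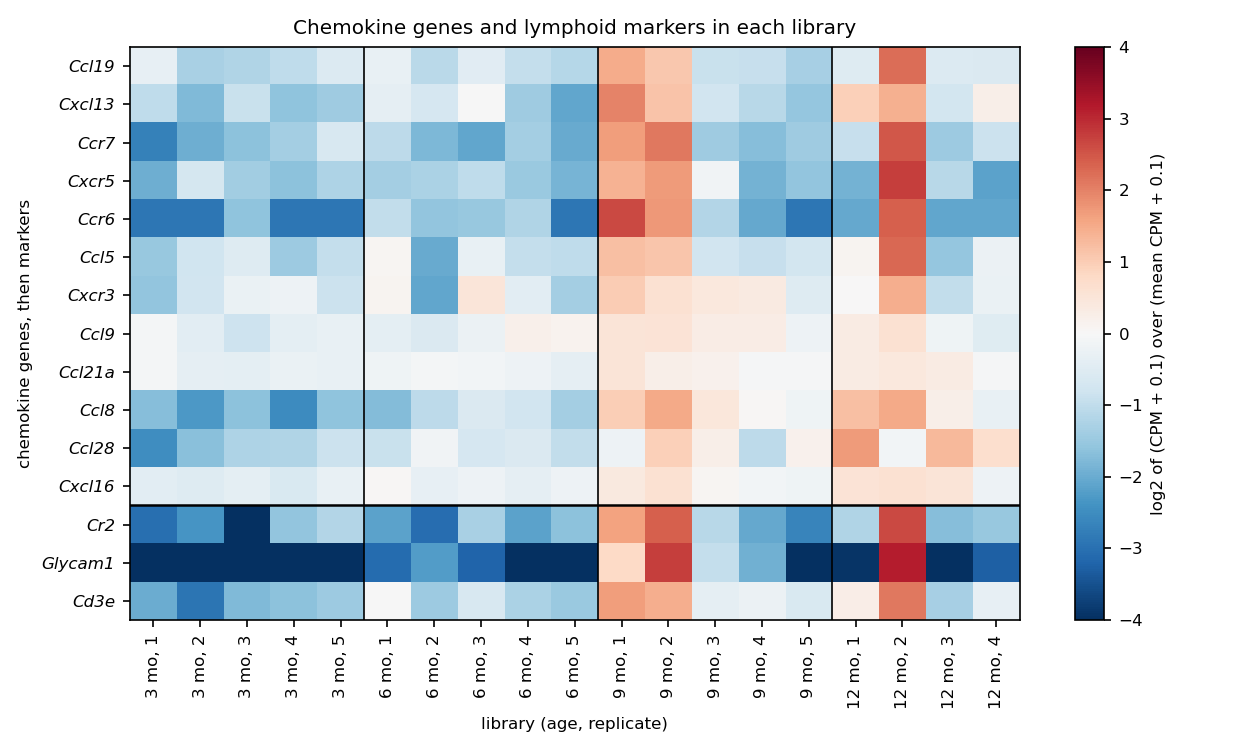
Log2 ratio of CPM to the mean CPM of the gene, after adding 0.1 to both, for 12 chemokine genes (rows above the line) and 3 markers (rows below it) in each of the 19 libraries, ordered by age and replicate. Replicates 1 and 2 at 9 months and replicate 2 at 12 months are red in the first 8 rows and all 3 marker rows. Of these markers, Cr2 is the gene by which the 3 libraries were picked. Of the 8 rows, that of Ccr6 met the limit of expression only through them. Ccl8, Ccl21a and Cxcl16 are above their means in these 3 libraries too. Ccl8, Ccl21a, Ccl28 and Cxcl16 are also above their means in 12 month replicates 1 and 3, Ccl8 only slightly in replicate 3.

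With all libraries, Ccl19, Ccr7, Cxcr5 and Cxcl13 rose in the trend. The log2 change over 9 months was 1.81 ± 0.59 (SE, edgeR adjusted p = 0.0252) for Ccl19, 3.06 ± 0.93 (SE, edgeR adjusted p = 0.0188) for Ccr7 and 2.80 ± 0.87 (SE, edgeR adjusted p = 0.0211) for Cxcr5. Without the 3 libraries it was 0.17 ± 0.27 (SE, edgeR adjusted p = 0.673) for Ccl19, 0.46 ± 0.41 (SE, edgeR adjusted p = 0.424) for Ccr7 and -0.11 ± 0.46 (SE, edgeR adjusted p = 0.886) for Cxcr5, and none of the 3 passed the threshold. Leaving out 12 month replicate 2 alone also ended each of these calls, with trends of 0.95 (edgeR adjusted p = 0.224) for Ccl19, 2.22 (edgeR adjusted p = 0.123) for Ccr7 and 1.48 (edgeR adjusted p = 0.255) for Cxcr5. Cxcl13 had a trend of 2.34 ± 0.63 (SE, edgeR adjusted p = 0.00922) with all libraries and of 1.45 ± 0.43 (SE, edgeR adjusted p = 0.0171) without the 3. At 12 against 3 months Cxcl13 changed by 2.06 ± 0.66 (SE, edgeR adjusted p = 0.0322), and at 9 against 3 months by 1.97 ± 0.63 (SE, edgeR adjusted p = 0.0302), which became 0.23 ± 0.47 (SE, edgeR adjusted p = 0.782) without the 3 libraries. The call of Cxcl13 at 12 against 3 months was lost without 3 month replicates 1, 2, 4 or 5 or 12 month replicates 1 or 2, where it was 1.68 to 2.15 (edgeR adjusted p = 0.0511 to 0.0936). That at 9 against 3 months was lost without 3 month replicates 2, 4 or 5 or 9 month replicates 1 or 2, where it was 1.22 to 1.95 (edgeR adjusted p = 0.0592 to 0.122). Bcl9l lies on the strand opposite Cxcr5, and 4930578G10Rik on that opposite Ccl19 and Ccl21a.

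Over the members as a whole, 12 instead of 19 were called in the trend without the 3 libraries, when 27.2% of all genes were called, and 11 of the 12 were among the 19. At 9 against 3 months 6 instead of 15 were called, against 17.6% of all genes, and at 12 against 3 months 9 instead of 10, against 25.0%. Of 41 members tested, these 12, 6 and 9 are shares close to those of all genes. Higher were 10, 5 and 8 of them, against 2044, 1273 and 1873 of all 15542 genes. The member medians were 0.41, 0.23 and 0.32 in that order, beside 0.03, 0.02 and 0.02 over all genes. Ccl8, Ccl28, Ccl21a, Cxcl16 and Cxcr6 were called at 12 against 3 months with and without the 3 libraries and in each of the 19 fits that left out 1 library.

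**Figure D4:**
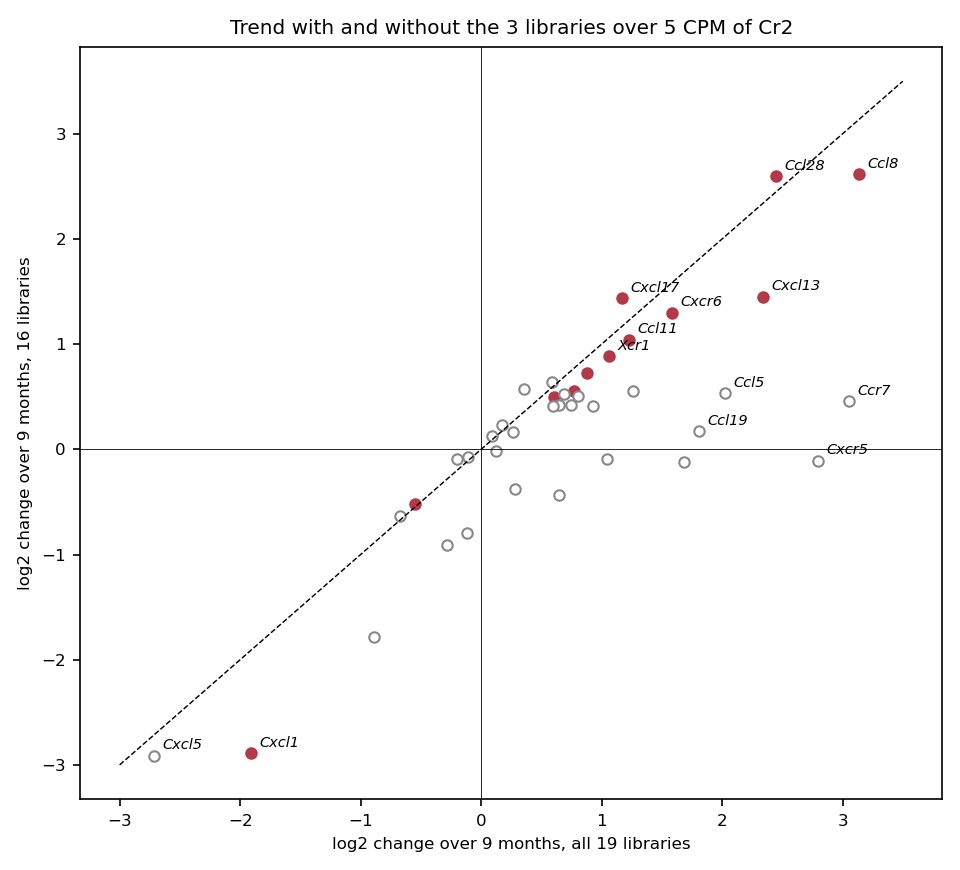
Log2 change over 9 months from the linear trend for 40 of the 41 members tested, with all 19 libraries on the x axis and without the 3 libraries over 5 CPM of Cr2 on the y axis. Filled red points have an edgeR adjusted p under 0.05 in the 16 libraries, and the dashed line marks equal values. Ccl8 and Ccl28 are at 2.62 and 2.59 on the y axis, while Ccr7, Cxcr5, Ccl19 and Ccl5 lie between -0.11 and 0.53 there.

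The interferon-induced ligands of CXCR3 did not pass edgeR's test in any comparison. Cxcl9, which draws activated T cells, stood at 3.98, 1.05, 2.66, 0.583 and 1.68 CPM at 3 months, 2.01, 1.08, 3.05, 2.901 and 1.12 at 6 months, 10.96, 3.17, 3.65, 2.73 and 2.21 at 9 months and 1.49, 17.9, 0.964 and 1.81 at 12 months. It was highest in replicate 2 at 12 months and replicate 1 at 9 months. Cxcl10, a relative induced by both interferon classes, ranged from 1.83 to 19.4 CPM, again with its highest value in 12 month replicate 2, and had a log2 change of 0.76 ± 0.55 (SE, edgeR adjusted p = 0.332) at 12 against 3 months. The trend of Cxcl9 was 1.68 ± 0.69 (SE, edgeR adjusted p = 0.0722) and that of Cxcr3, the receptor on activated T cells, 1.26 ± 0.49 (SE, edgeR adjusted p = 0.05696), and both were smaller without the 3 libraries, -0.12 ± 0.51 (SE, edgeR adjusted p = 0.885) and 0.55 ± 0.48 (SE, edgeR adjusted p = 0.411). DESeq2 called both in the trend with all libraries. Art3 overlaps Cxcl10 on the opposite strand. Ccl22, a ligand of CCR4, had 0.761 to 3.37 CPM and Ccl24, a ligand of CCR3, 0 to 0.947 CPM over all libraries, with log2 changes of -0.17 ± 0.44 (SE, edgeR adjusted p = 0.811) and -0.22 ± 0.67 (SE, edgeR adjusted p = 0.8501) at 12 against 3 months.

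The stromal axis of Cxcl12 and Cxcr4, which retains stem cells and lymphocytes in tissue, was higher at 9 months. Cxcl12 (NCBI gene 20315, chr6:117168535-117181367 on the plus strand) stood at 132, 153, 152, 168 and 129.7 CPM at 3 months, 166, 145, 135, 154 and 127 at 6 months, 205, 287, 174, 168 and 245 at 9 months and 151, 159, 138 and 148 at 12 months. The lowest 9 month library equalled the highest 3 month library to within 1 CPM, and the 12 month libraries lay within the 3 month range. Its log2 change was 0.55 ± 0.12 (SE, edgeR adjusted p = 0.00335) at 9 against 3 months, 0.02 ± 0.13 (SE, edgeR adjusted p = 0.936) at 12 against 3 months and -0.54 ± 0.13 (SE, edgeR adjusted p = 0.0947) at 12 against 9 months, the last of which was past the threshold in DESeq2 only. Cxcr4 had means of 13.3 ± 4.07 (SD), 14.1 ± 1.41, 27.4 ± 8.11 and 18.03 ± 6.77 CPM at 3, 6, 9 and 12 months, with a log2 change of 1.04 ± 0.24 (SE, edgeR adjusted p = 0.00457) at 9 against 3 months and 0.44 ± 0.26 (SE, edgeR adjusted p = 0.226) at 12 against 3 months. Cxcr7, the scavenging receptor of CXCL12 now also named Ackr3, ranged from 19.2 to 36.6 CPM, with a log2 change of 0.14 ± 0.17 (SE, edgeR adjusted p = 0.592) at 9 against 3 months.

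Cxcl14 took the opposite course. This ligand of epithelium and stroma stood at 81.6, 95.6, 113, 88.2 and 103 CPM at 3 months, 115, 74.8, 73.9, 76.5 and 82.6 at 6 months, 69.2, 45.1, 40.99, 78.5 and 65.3 at 9 months and 71.9, 71.2, 70.5 and 74.3 at 12 months. All libraries of 9 and 12 months lay below all 3 month libraries. It fell by 0.69 on the log2 scale at 9 against 3 months, with an SE of 0.16 and an edgeR adjusted p = 0.00457. Its change at 12 against 3 months was -0.42 ± 0.17 (SE, edgeR adjusted p = 0.0794) and its trend -0.55 ± 0.18 (SE, edgeR adjusted p = 0.0242). The trend call was lost without 3 month replicates 3 or 5, where it was -0.51 to -0.48 (edgeR adjusted p = 0.0516 to 0.0608).

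Endothelial markers, and liver markers in some libraries, were also higher at 9 months. All 5 endothelial markers rose at 9 against 3 months, and their sum was 243 to 276 CPM at 3 months, 361 to 423 CPM at 9 months and 312 to 359 CPM at 12 months. Relative to 100 CPM of that sum Cxcl12 stood at 47.6 to 61.6 CPM at 3 months and 42.7 to 76.1 CPM at 9 months, and Cxcr4 at 3.34 to 6.897 and 4.05 to 9.61, both with overlap. Of the 6 liver markers 5 were tested and 4 rose at 9 against 3 months, and their sum was 24.5 to 43.1 CPM at 3 months and 13.8 to 641 CPM at 9 months. Their part in the chemokine values was not tested.

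The neutrophil-drawing ligands of CXCR2 and the monocyte-drawing Ccl2 and Ccl7 differed widely between libraries of 1 age. Ccl2 stood at 1.58, 7.02, 1.51, 1.02 and 18.6 CPM at 3 months, 0.914, 0.505, 0.882, 7.25 and 11.9 at 6 months, 1.81, 2.02, 2.05, 2.73 and 0.989 at 9 months and 2.19, 9.72, 1.85 and 1.89 at 12 months. Cxcl1 stood at 1.13, 2.76, 0.502, 0.802 and 8.596 CPM at 3 months, 1.096, 1.52, 0.641, 3.92 and 6.97 at 6 months, 1.104, 0.936, 0.456, 0.624 and 0.761 at 9 months and 0.313, 2.75, 0.668 and 0.227 at 12 months. Both had the same 5 highest libraries, 3 month replicates 2 and 5, 6 month replicates 4 and 5 and 12 month replicate 2. Cxcl5, an epithelial ligand of CXCR2, stood at 0.4502, 1.49, 0.144, 0 and 9.83 CPM at 3 months, 0.457, 0.144, 0.321, 2.03 and 3.21 at 6 months, 0.158, 0.432, 0.608, 0.156 and 0.304 at 9 months and 0.313, 0.765, 0.816 and 0.0756 at 12 months. Ccl7 stood at 0, 2.69, 0.431, 0.729 and 8.81 CPM at 3 months, 0.731, 1.15, 0.401, 3.99 and 3.63 at 6 months, 1.74, 1.80001, 0.7605, 1.09 and 1.14 at 9 months and 1.33, 5.51, 2.82 and 1.06 at 12 months. For Cxcl5 and Ccl7, 4 of those 5 libraries were among their own 5 highest, the exceptions being 12 month replicate 2 for Cxcl5 and 3 month replicate 2 for Ccl7. These libraries were picked out after their values had been seen, and no test was made of them.

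**Figure D5:**
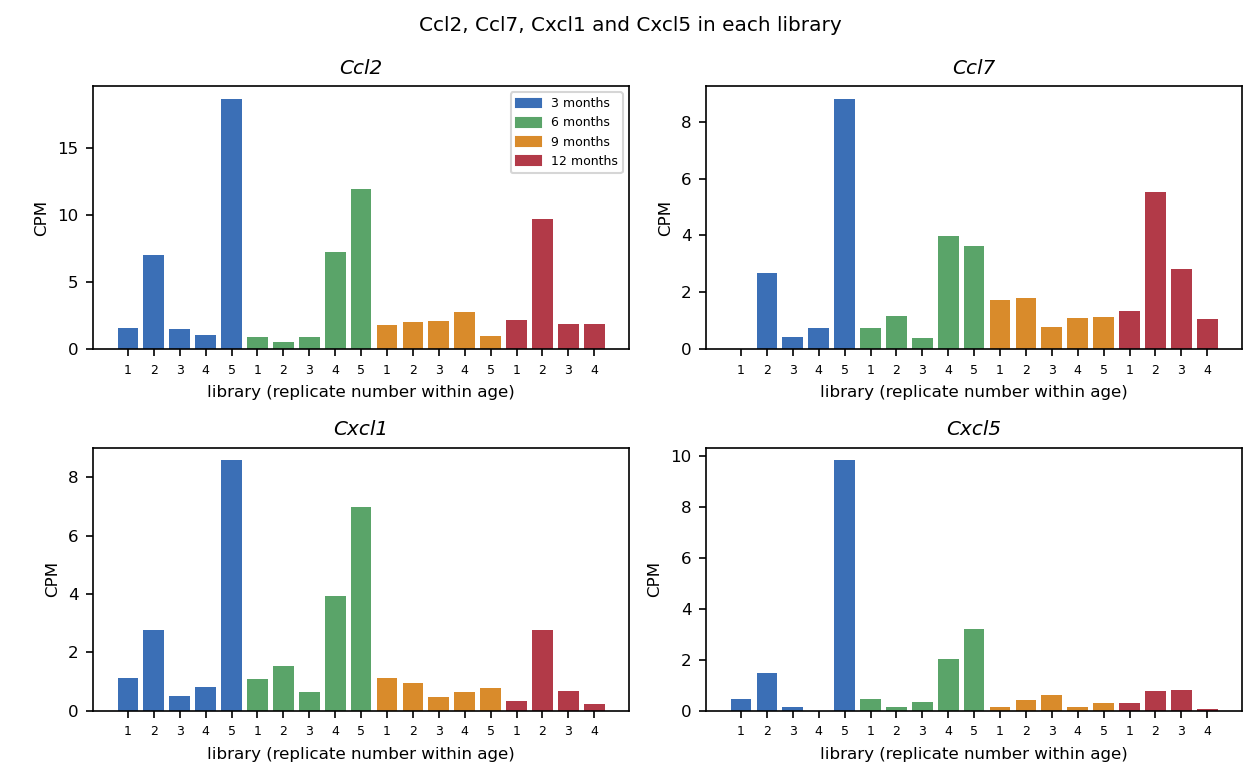
CPM of Ccl2, Ccl7, Cxcl1 and Cxcl5 in each of the 19 libraries (bars), coloured by age and labelled by replicate number. Replicate 5 at 3 months has the highest bar in all 4 panels, and no 9 month library is among the 5 highest of any panel.

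None of the 4 passed edgeR's test in the comparisons of ages or in the trend with age in months, fitted to all libraries. With the trend taken on log2 of age instead, Cxcl5 was called by edgeR. Cxcl1 had a log2 change of -1.82 ± 0.82 (SE, edgeR adjusted p = 0.113) at 9 against 3 months and of -1.91 ± 0.82 (SE, edgeR adjusted p = 0.0851) in the trend, and Cxcl5 of -2.80 ± 1.13 (SE, edgeR adjusted p = 0.0779) and -2.71 ± 1.03 (SE, edgeR adjusted p = 0.0534). DESeq2 called Cxcl1 and Cxcl5 in the trend and Cxcl5 at 9 against 3 months, all lower with age. For the 16 libraries with less Cr2, edgeR's trend of Cxcl1 was -2.89 (edgeR adjusted p = 0.0405, with an SE of 0.9951) and passed the threshold. Their receptor Cxcr2 ranged from 4.26 to 8.54 CPM in all libraries, with a log2 change of 0.12 ± 0.20 (SE, edgeR adjusted p = 0.715) at 12 against 3 months. Of 6 granulocyte markers 3 were tested and none was called in any comparison, with a median log2 change of 0.46 at 12 against 3 months. Csf3r, the receptor of a granulocyte growth factor, had 2.02 to 7.97 CPM over all libraries, Mmp8, a neutrophil collagenase, 2.05 to 11.7 CPM and Retnlg 0 to 0.316 CPM. S100a8 had 0 to 0.837 CPM and S100a9 0 to 1.16 CPM, and Ly6g was at 0 in every library.

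The upstream sequences of Cxcl1 and Cxcl10 are shown because these were the 2 expressed members with a kappa-B-like match among the 29 with a RefSeq window (GRCm38.p6). Matches to the kappa-B-like and interferon response-like motifs given above, searched on both strands, are in capitals.
Cxcl1: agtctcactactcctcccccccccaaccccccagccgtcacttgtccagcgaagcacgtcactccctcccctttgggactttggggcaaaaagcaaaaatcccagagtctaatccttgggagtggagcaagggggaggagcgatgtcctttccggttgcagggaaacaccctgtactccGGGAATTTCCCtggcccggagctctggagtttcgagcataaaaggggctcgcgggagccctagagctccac
Cxcl10: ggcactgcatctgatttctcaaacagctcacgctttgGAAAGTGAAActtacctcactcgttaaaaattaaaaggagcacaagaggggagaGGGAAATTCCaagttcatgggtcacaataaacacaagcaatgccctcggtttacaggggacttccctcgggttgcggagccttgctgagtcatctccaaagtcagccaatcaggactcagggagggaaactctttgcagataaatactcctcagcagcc
The windows are chr5:90890995-90891244 on the plus strand of chromosome 5 for Cxcl1 and chr5:92348890-92349139 on the minus strand for Cxcl10. In Cxcl1 a pair of overlapping kappa-B-like matches begin 71 and 70 bases before the start. In Cxcl10 such a match begins 159 bases and an interferon response-like match 213 bases before the start. The first motif was found in 1.21% of all 32851 windows and the second in 2.98%, the latter also in Ccl19 and Cxcl14 among the members.

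Of 6 scavenging receptors and platelet chemokines tested, 1 rose at 12 against 3 months and none fell, where 22.4% of all genes were called. It was Darc, now named Ackr1, an endothelial receptor that carries chemokines across venules, with a log2 change of 2.01 ± 0.56 (SE, edgeR adjusted p = 0.0155). Darc had 3.67 to 6.07 CPM in the 3 libraries over 5 CPM of Cr2 against 0.291 to 3.21 in the other 16. Its log2 change was 1.80 ± 0.54 (SE, edgeR adjusted p = 0.0226) with those 3 left out. Pf4, the platelet chemokine also made by macrophages, rose at 9 against 3 months by 1.16 ± 0.23 (SE, edgeR adjusted p = 0.00154). The median log2 change of this list at 12 against 3 months was 0.38, beside 0.02 over all genes. Ccbp2, now named Ackr2 and a scavenger of inflammatory CC chemokines, had a log2 change of 0.77 ± 0.36 (SE, edgeR adjusted p = 0.126), and Ccrl2, a receptor that presents chemerin, of 0.26 ± 0.25 (SE, edgeR adjusted p = 0.488).

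Of 28 genes of receptor signalling in leukocytes that were tested, 13 rose and 3 fell at 12 against 3 months, with a median log2 change of 0.38, against the background of 22.4% called. In the 16 libraries with less Cr2, 10 rose and 4 fell, where 25.0% of all genes were called. The smallest trend p-values belonged to Gnai2, a Gi subunit that couples chemokine receptors, with a trend of 0.40 ± 0.05 (SE, edgeR adjusted p = 0.000136), to Pik3r5, the regulatory subunit of PI3-kinase gamma, with 1.49 ± 0.23 (SE, edgeR adjusted p = 0.000351), to Rgs2, a regulator of G protein signalling, with -0.77 ± 0.16 (SE, edgeR adjusted p = 0.00172), and to Gng2, a G protein gamma subunit, with 0.57 ± 0.12 (SE, edgeR adjusted p = 0.00183). Rgs2 was the one of these 4 that fell. Of 8 genes of chemokine cleavage and presentation tested, Mmp12 rose at 12 against 3 months and Adam10 and Adam17 fell, and the median was -0.06. In the same 16 libraries only Adam10 was called. Mmp12, a macrophage elastase that trims chemokines, had a log2 change of 1.19 ± 0.40 (SE, edgeR adjusted p = 0.0415) with all libraries and of 0.82 ± 0.40 (SE, edgeR adjusted p = 0.147) in those 16, and Mmp9, a gelatinase, one of 1.19 ± 0.19 (SE, edgeR adjusted p = 0.000369) at 9 against 3 months and 0.16 ± 0.20 (SE, edgeR adjusted p = 0.609) at 12 against 3 months.

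The other 15 members did not reach the limit of expression. Their mean was at most 0.487 CPM, for Xcl1, the ligand of XCR1. Ccl17, Ccr3, Ccl27b, Ccr4, Cxcl2, Ccr8, Cxcr1, Cxcl11, Cxcl3, Ccl1 and Ccl20 followed in that order, down to 0.007599 CPM. Ccl21b, Ccl26 and Cxcl15 were at 0 in every library.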

How the data were processed

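RNA from ovaries was sequenced as 19 libraries, grouped by the age in the labels (5, 5, 5 and 4). The table of estimated counts per gene, with fractions, was made by the authors on build mm10, per the submitters' processing notes and the file headers. Which aligner and counting program were used, and whether counting was stranded, is not given in the sources read. A second table deposited by the authors holds log2 normalized values, set so that each gene has a 3 month median of 0. A single per-library column in either file (1 each) matched no sample and was left out. Library totals (10851519 to 14302207) limit the precision of low genes.

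Counts were rounded and tested with edgeR 4.0.16 (quasi-likelihood, robust, TMM scaling, R 4.3.3) in a fit of all libraries, after a filter on low counts (minimum 10 in enough libraries, total 15) that left 15518 genes. Benjamini-Hochberg adjustment covered all of them, with a threshold of 0.05. Pairwise comparisons came from that model and the linear trend from a second fit with age as a number, and displayed CPM use the TMM factors. Alternatives were RLE scaling, DESeq2 1.42.0, limma-trend (limma 3.58.1) on the authors' log2 values, other filters, a threshold of 0.01, log2 of age, only the ages compared, and leaving out each library or the 3 over 5 CPM of Cr2. The code was tested on simulated data.

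Members called at 12 against 3 months or in the trend are given with every library, and the 5 highest by CPM and by CPM per kb are always named. Other members are given by ranges or means, but Cxcl1, Cxcl5, Cxcl9, Ccl2 and Ccl7 have every library because their spread was seen. For the pathway lists up to 4 genes with the smallest trend p are named. Some results are not reported here. Members and lists were chosen with earlier results of these data known.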

Additional observations from a re-analysis of the deposited data

Results flagged for a closer look

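In 168 groups of 4 or 5 libraries of 1 age, 21 values lay farther from the others than Dixon's 95% limit, 20 as the highest and 1 as the lowest. Chance flags about 1 in 20 groups. Of the 21, 9 were in 12 month replicate 2, a library over 5 CPM of Cr2. In that library Cxcr4 stood at 28.2 CPM, Ccl19 at 17.6 CPM, Cxcl9 at 17.9 CPM, Ccl5 at 16.2 CPM, Cxcr5 at 14.2 CPM and Ccr7 at 11.7 CPM. Ccl2 stood at 9.72 CPM, Ccr6 at 3.75 CPM and Ccr9 at 2.53 CPM there.

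In 9 month replicate 1, Cxcl9 was high at 10.96 CPM and Ccr10 at 2.37 CPM, and in 9 month replicate 2, Ccl6 was high at 51.8 CPM and Ccr9 at 2.38 CPM. Replicate 5 at 3 months was high in Cxcl1 (8.596 CPM) and Cxcl5 (9.83 CPM). Replicate 3 at 3 months was high in Cxcr7 (30.002 CPM) and in Ccr6, at a level near the limit of counting (0.144 CPM). Replicate 1 at 6 months was high in Cxcl14 (115 CPM) and Cx3cr1 (23.8 CPM), and replicate 1 at 12 months in Ccl4 (2.03 CPM). The low value was that of Cxcl16 in 12 month replicate 4, at 27.7 CPM.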

How the results depend on the processing

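With an adjusted p under 0.01, 5 of the 41 members tested were called at 12 against 3 months, 8 at 9 against 3 months, 2 at 12 against 6 months and 6 in the trend. Over all 15518 genes tested the calls were 1354, 1872, 538 and 2349, in that order. In the trend the share of members called was close to that of all genes. DESeq2 called 8 members and 2639 genes at 12 against 6 months, and 1 member and 252 genes at 12 against 9 months. The latter comparison was added after the data were seen. Without the 3 libraries over 5 CPM of Cr2, 6 members were called at 9 against 3 months and 12 in the trend, against 17.6% and 27.2% of all genes. The log2 change then turned to -0.36 for Cxcr5 and -0.0129 for Cxcl12 at 12 against 3 months and to -0.11 for Cxcr5 in the trend. Leaving out 1 library gave 6 (without 3 month replicate 1 or 5) to 18 (without 12 month replicate 4) calls at 12 against 3 months, 12 to 19 at 9 against 3 months, 0 to 0 at 6 against 3 months and 3 to 5 at 12 against 6 months. In the trend it gave 12 (without 12 month replicate 2) to 22 (without 12 month replicate 4). These fits tested 15459 to 15692 genes. Of all genes, 2124 to 3806 were called at 12 against 3 months and 2784 to 4484 at 9 against 3 months. The numbers were 0 to 5 at 6 against 3 months, 853 to 2356 at 12 against 6 months and 3798 to 4853 in the trend. Leaving out 1 library moved Cxcr5 between -0.36 and 2.77 and Cxcl12 between -0.0245 and 0.0716 on the log2 scale at 12 against 3 months. The cause was not tested. For the 20 named members at 12 against 3 months and in the trend, RLE scaling and the CPM filter kept direction and side of the threshold in all 40 cases. They were kept in 35 cases under DESeq2, 37 without a filter, 32 with limma-trend and 25 without the 3 libraries. Without those libraries, 10 kept direction but lost their call, 2 gained one and the 3 named above turned. Of these 3, the trend of Cxcr5 also lost its call. In the trend alone, 18 of 20 were kept with log2 of age. At 12 against 3 months alone, 15 of 20 were kept with only the ages compared. No paired analysis was possible because the labels give no replicate numbers shared between ages. Low genes such as Ccr6 are limited by depth.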
